A study of Mus musculus with 8 samples.

Results

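The genes described here are 10 contractile, structural and regulatory genes of smooth muscle, namely Acta2, Actg2, Myh11, Mylk, Lmod1, Tagln, Cnn1, Smtn, Des and Myocd, chosen by their gene symbols in the authors' annotated matrix. They are 10 of 20920 symbols in that matrix and were read by 16 of the 41174 probes on the array. Lungs of 4 wild-type C57BL/6 mice and of 4 C57BL/6 mice carrying an Scgb3a2 transgene were compared, all male, without treatment and 8 to 10 weeks old according to the labels. The transgene was mouse Scgb3a2 cDNA under the human surfactant protein C promoter, which is active in lung epithelium and not in smooth muscle, and the animals came from a single founder line. Scgb3a2 encodes a secretoglobin that airway epithelial cells secrete. Whole-lung RNA of each mouse was labeled with Cy5 and hybridized against a Cy3-labeled pool that, by the study's methods, held equal RNA of each sample. Values are log2 ratios of lung over pool, and differences are transgenic minus wild-type.

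Smooth muscle cells shorten when calcium and calmodulin activate myosin light chain kinase, which phosphorylates the light chains of myosin and lets it pull on actin filaments. In the lung such cells wrap the conducting airways and the walls of arteries and veins. Their contractile genes are turned on together by serum response factor, which binds a short sequence called the CArG box, and by its coactivator myocardin. Alpha smooth muscle actin is also the usual marker of the myofibroblasts that appear in lung fibrosis.

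CArG boxes were looked for in RefSeq promoter windows on GRCm38.p6, each with 250 bases before and 50 bases after the start site, on both strands. The table held windows for 6 of the 10 genes (Acta2, Lmod1, Cnn1, Smtn, Mylk and Des), and Actg2, Myh11, Tagln and Myocd had no entry. An exact 10-base box was in 0 of these 6 windows, against 1.63% of 32851 windows of all genes. With 1 departure allowed anywhere in the box, 2 of the 6 windows held a match, against 21.1% of all windows. These matches are shown, with the box in capitals, because both genes are described with their values in single lungs further on.
Acta2 at chr19:34255428-34255477, minus strand: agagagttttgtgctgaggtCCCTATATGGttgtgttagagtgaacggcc
Acta2 at chr19:34255378-34255427, minus strand: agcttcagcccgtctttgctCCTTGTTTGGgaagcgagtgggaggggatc
Lmod1 at chr1:135324604-135324653, plus strand: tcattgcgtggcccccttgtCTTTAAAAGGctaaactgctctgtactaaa
Lmod1 at chr1:135324629-135324678, plus strand: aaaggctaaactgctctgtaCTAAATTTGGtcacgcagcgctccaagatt
The boxes of Acta2 start at bases -84 and -34 and those of Lmod1 at bases -189 and -164, counted from the start site. A match describes these letters and is no evidence of binding.

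Signal from smooth muscle was clearly present in both genotypes. In the Cy5 channel 15 of the 16 probes were well above background on each of the 8 arrays, and all 16 passed the filter on dim probes. The raw Cy5 signal of Tagln, for example, was 38914 to 77120 over a local background of 56.5 to 63. The median raw Cy5 signal over all spots was 204 to 277.5 per array, and 1.72% to 6.46% of spots carried an outlier flag and were left out. No spot was saturated in the Cy5 channel, and saturation in Cy3 was not counted. Each of 4 slides held 1 lung of each genotype. As a check of the labels, wild-type lungs had an Scgb3a2 log2 ratio of -0.09 ± 0.51 and transgenic lungs one of 0.79 ± 0.33 (SD, n = 4 each) (unadjusted p = 0.0033, adjusted p = 1 by limma), with ranges that overlapped.

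None of the 10 smooth muscle genes differed between the genotypes by more than the spread between lungs in the tests run. By limma 0 of the 16 probes had an adjusted p under 0.05, where 0% of all 32653 probes tested did, and 0 had an unadjusted p under 0.05, where 2.09% of all probes did. The test named in the methods, run on these values without sharing of variance between probes, also gave 0 for both counts. For 0 of the 16 probes did the ranges of the genotypes separate, against 1.97% of all probes, 0 passed 1.5-fold, against 0.511%, and 0 passed 1.5-fold together with an unadjusted p under 0.05, against 0.23%. Over the brightest probe of each gene, 5 genes were above 0, where 50.4% of all probes were, and 5 below, with a median log2 fold change of 0.0046 beside 0.00099 over all probes tested. Acta2 entered this count at -0.07, from a probe with 2 unflagged wild-type lungs. Its probe with 10 spots, measured in all lungs, was at 0.27, so the split and the median depend on the probe chosen. The 95% confidence interval lay within 1.5-fold in both directions for all 10 brightest probes and for 15 of all 16, so that a larger difference fell outside these intervals. In bulk lung RNA fewer cells of a type and less RNA per cell cannot be told apart.

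**Figure D1:**
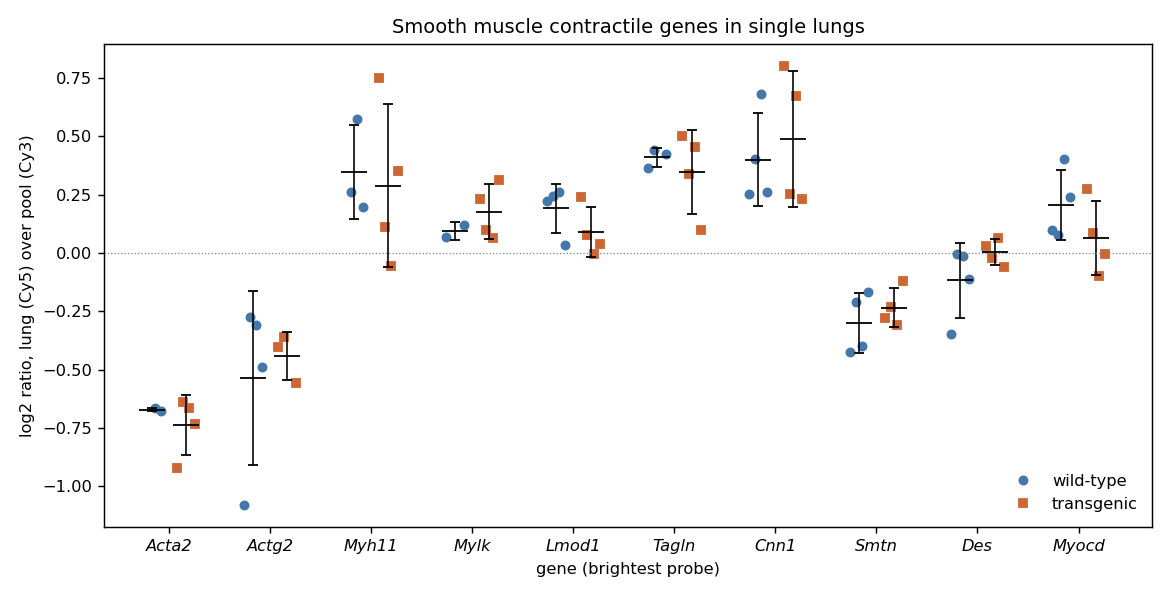
Log2 ratio of lung over pool (vertical axis) for the brightest probe of each of the 10 genes, with circles for wild-type and squares for transgenic lungs and with bars for the mean and SD of 2 to 4 lungs. The genotypes overlap for every gene, and wild-type replicate 1 stands apart for Actg2, at -1.08.

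**Figure D2:**
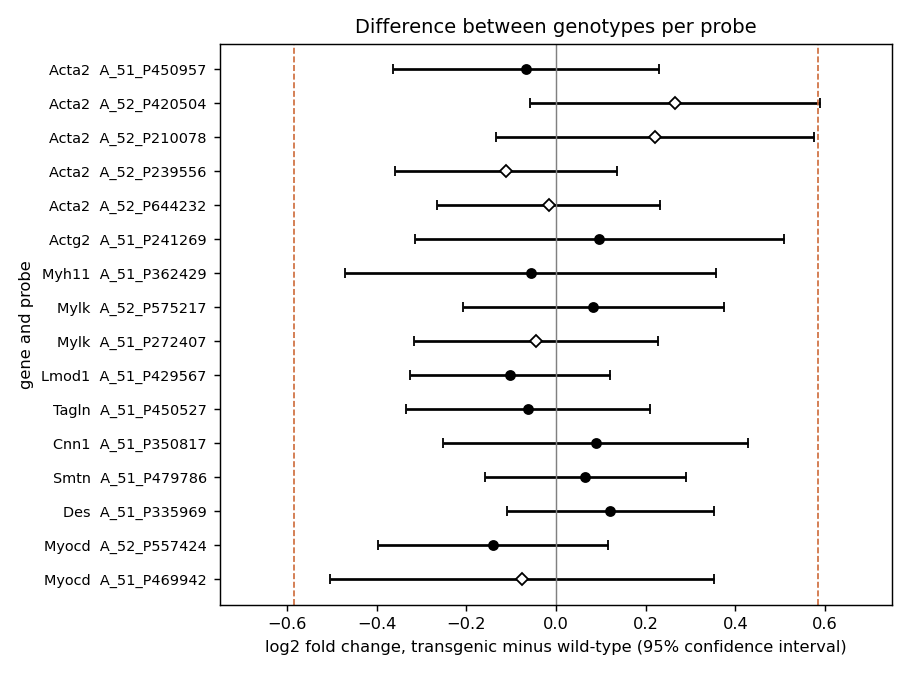
Log2 fold change of transgenic minus wild-type lungs with its 95% confidence interval by limma for the 16 probes, with filled circles for the brightest probe of a gene, open diamonds for its other probes and dashed lines at 1.5-fold. Every interval spans 0, and that of Acta2 probe A_52_P420504 alone reaches past a dashed line, to 0.59.

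Acta2 encodes alpha smooth muscle actin, the thin filament of vascular and airway smooth muscle, and 5 probes read it. The brightest, A_51_P450957, was -0.67 and -0.68 in wild-type replicates 3 and 4, and it was flagged in replicates 1 and 2. In transgenic replicates 1 to 4 it was -0.92, -0.64, -0.66 and -0.73, so that replicate 1 was the lowest of the 6 lungs and both wild-type lungs lay inside the transgenic range. The difference was -0.07 (standard error 0.13, 95% confidence interval -0.36 to 0.23, unadjusted p = 0.621 by limma), with n = 2 wild-type lungs.

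Another Acta2 probe, A_52_P420504, is printed in 10 spots and is the best measured of the 5. Its values were -0.52, -0.18, -0.08 and -0.03 in wild-type replicates 1 to 4. Transgenic replicates 1 to 4 had 0.30, 0.06, 0.15 and -0.27. All transgenic lungs but replicate 4 lay above all wild-type lungs, and replicate 4 lay below 3 of them. Within an array the SD over the unflagged spots (2 to 10 of them) was 0.02 to 0.07, while the SD between lungs of a genotype was 0.23, and the spread of the spots does not cover differences between arrays. The difference was 0.27 (standard error 0.15, 95% confidence interval -0.06 to 0.59, unadjusted p = 0.0983 and adjusted p = 1 by limma, exact two-sided permutation p = 0.2, where 4 lungs against 4 allow 0.0286 at least). Without transgenic replicate 4 it was 0.38 with an unadjusted p of 0.0217 by limma, the lowest over all alternatives, and without wild-type replicate 1 it was 0.16 (unadjusted p = 0.285). On slides 1 to 4 the transgenic lung differed from the wild-type lung by -0.19, 0.83, 0.24 and 0.18.

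A dimmer probe, A_52_P210078, followed the 10-spot probe over the 8 lungs with a Pearson correlation of 0.93, a description over lungs that share the same arrays. It was -1.33, -0.79, -0.78 and -0.62 in wild-type and -0.59, -0.56, -0.51 and -0.98 in transgenic replicates 1 to 4. Again wild-type replicate 1 was the lowest lung and transgenic replicate 4 the lowest of its genotype, and the difference was 0.22 (standard error 0.16, unadjusted p = 0.199 by limma). Over the 6 lungs where it was not flagged, the brightest probe did not share this order, with correlations of -0.48 and 0.01 to these probes. Those 6 lungs leave out wild-type replicate 1, the lowest lung of both other probes. In the authors' matrix, which holds a value there, the brightest probe was also lowest in that lung, at -1.19. Whether the 3 probes, which name the same RefSeq transcript, share an order over all 8 lungs cannot be settled from unflagged spots.

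The last pair of Acta2 probes, A_52_P239556 and A_52_P644232, name cDNA clones rather than the RefSeq transcript. The first was above the pool in every lung, at 0.21 to 0.37 in wild-type and 0.01 to 0.42 in transgenic lungs, with a difference of -0.11 (standard error 0.11). The other was well above background on 4 of 8 arrays, with raw Cy5 signals of 77 to 88 over a background of 55 to 66, and its difference was -0.02 (standard error 0.11). Over the 5 probes the mean ratio to the pool ran from -0.77 to 0.23. Since no dyes were swapped, dye effects of a probe cannot be told apart from its level relative to the pool, and only differences between lungs are compared.

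**Figure D3:**
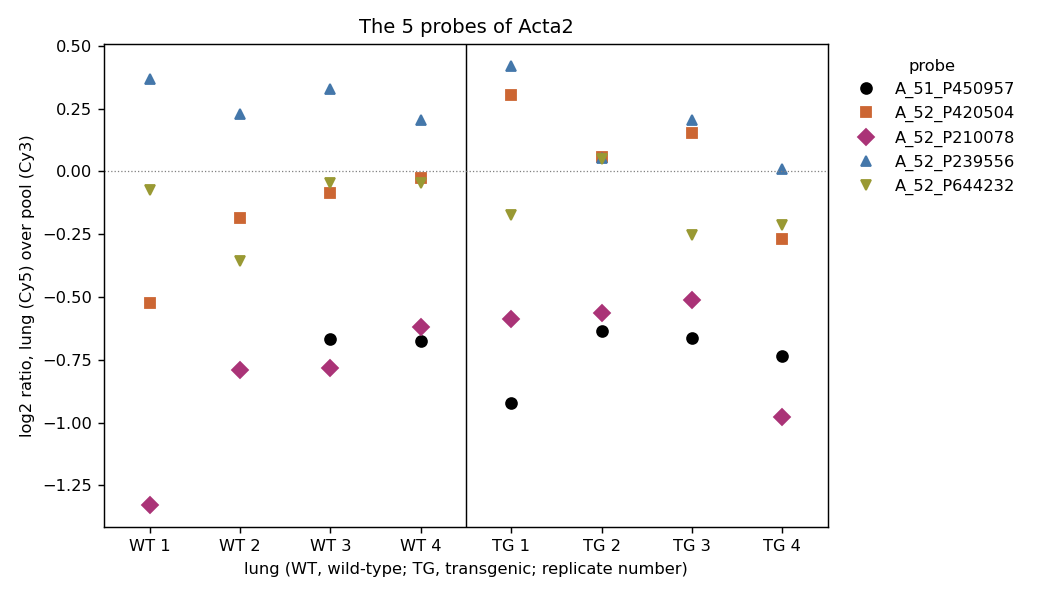
Log2 ratio of lung over pool (vertical axis) for the 5 probes of Acta2 in the 4 wild-type (WT) and 4 transgenic (TG) lungs, with missing points where the probe was flagged. Probes A_52_P420504 and A_52_P210078 share the low values of wild-type replicate 1 (-0.52 and -1.33) and transgenic replicate 4 (-0.27 and -0.98). A_51_P450957, which is flagged in wild-type replicate 1, has its lowest unflagged value in transgenic replicate 1 (-0.92).

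Actg2 encodes gamma smooth muscle actin, typical of visceral smooth muscle. It was -1.08, -0.27, -0.31 and -0.49 in wild-type replicates 1 to 4 and -0.40, -0.36 and -0.56 in transgenic replicates 1, 2 and 4. Wild-type replicate 1 was by far the lowest lung, and the other wild-type lungs lay on both sides of the transgenic ones. The difference of 0.10 (standard error 0.19, unadjusted p = 0.614 by limma) became -0.08 without wild-type replicate 1.

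Myh11, the smooth muscle myosin heavy chain, is the motor of the contractile apparatus and a specific marker of this cell type. It was 0.26, 0.58 and 0.20 in wild-type replicates 2 to 4 and 0.75, 0.11, -0.06 and 0.35 in transgenic replicates 1 to 4. The highest and the lowest lung were both transgenic. The difference was -0.06 (standard error 0.19, 95% confidence interval -0.47 to 0.36, unadjusted p = 0.768 by limma). Its mean was 0.43 lower on the second scan day than on the first, at 0.13 and 0.56, the widest gap between scan days of all 16 probes, and within the days the difference between genotypes was -0.02 and -0.20.

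Mylk, the kinase that switches smooth muscle myosin on, was read by a pair of probes. The brighter one was 0.07 and 0.12 in wild-type replicates 1 and 4, the unflagged ones, and 0.23, 0.10, 0.06 and 0.31 in the transgenic lungs. Both wild-type values fell inside the transgenic range, with a difference of 0.08 (standard error 0.13, unadjusted p = 0.536 by limma). The dimmer probe, which names a cDNA clone, had a difference of -0.04 (standard error 0.12), and over 6 lungs the correlation of the pair was 0.04.

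Lmod1 encodes leiomodin, which seeds new actin filaments in smooth muscle. It was 0.22, 0.25, 0.26 and 0.04 in wild-type replicates 1 to 4 and 0.24, 0.08, -0.0048 and 0.04 in transgenic replicates 1 to 4. High values were found in 3 wild-type lungs and 1 transgenic lung, and low ones in 1 and 3. The difference was -0.10 (standard error 0.10, 95% confidence interval -0.33 to 0.12, unadjusted p = 0.331 by limma), and it stayed between -0.20 and -0.06 under the alternative settings.

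Tagln encodes transgelin, an actin cross-linking protein also called SM22. In wild-type replicates 1, 2 and 4 it was 0.37, 0.44 and 0.42, and in transgenic replicates 1 to 4 it was 0.50, 0.34, 0.45 and 0.10. Transgenic replicate 4 lay below the remaining lungs, which were close together, and without it the difference of -0.06 (standard error 0.12, unadjusted p = 0.623 by limma) became 0.02.

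Cnn1, or calponin, binds actin and restrains the myosin motor. Wild-type replicates 1 to 4 had 0.25, 0.40, 0.68 and 0.26, and transgenic replicates 1 to 4 had 0.80, 0.25, 0.67 and 0.23. Each genotype held low and high lungs side by side, and the difference of 0.09 (standard error 0.15, unadjusted p = 0.578 by limma) was small beside this spread.

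Smtn encodes smoothelin, an actin-associated protein of contractile smooth muscle. It was -0.42, -0.21, -0.40 and -0.17 in wild-type and -0.28, -0.23, -0.31 and -0.12 in transgenic replicates 1 to 4, with ranges that overlapped. The difference was 0.07 (standard error 0.10, unadjusted p = 0.534 by limma).

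Des encodes desmin, the intermediate filament that ties contractile units together in smooth, cardiac and skeletal muscle. It was -0.35, -0.0023, -0.01 and -0.11 in wild-type replicates 1 to 4 and 0.03, -0.02, 0.06 and -0.06 in transgenic replicates 1 to 4. Wild-type replicate 1 was the lowest lung, and the remaining 7 lungs lay within a narrow band. The difference was 0.12 (standard error 0.11, 95% confidence interval -0.11 to 0.35, unadjusted p = 0.275 by limma), and it was 0.04 to 0.16 under the alternative settings.

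Myocd, the coactivator that drives this gene program, was read by a pair of probes of the same transcript. The brighter was 0.10, 0.08, 0.40 and 0.24 in wild-type and 0.28, 0.09, -0.10 and -0.0031 in transgenic replicates 1 to 4. Wild-type replicate 3 was the highest and transgenic replicate 3 the lowest lung, with a difference of -0.14 (standard error 0.12, 95% confidence interval -0.40 to 0.12, unadjusted p = 0.254 by limma). The dimmer probe ranged from -0.67 to 0.09 in wild-type and from -0.63 to 0.04 in transgenic lungs. Its difference was -0.08 (standard error 0.19), and its correlation with the brighter probe was 0.02 over 8 lungs.

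Of the 10 smooth muscle genes 7 varied less between lungs than the median probe. The SD within a genotype had a median of 0.13 over the brightest probes of the 10 genes, beside 0.18 over all probes tested. Mylk (0.10), Lmod1 (0.11), Smtn (0.11) and Acta2 (0.11) varied least, with Mylk and Acta2 measured in 6 lungs and the other Acta2 probes of the RefSeq transcript, measured in all 8, at 0.23 and 0.27, and Myh11 (0.30) and Actg2 (0.30) varied most, at the 87.7th and 87.2nd percentile of all probes tested. These values are descriptions without a test, and brightness, which differs between the probes, was not matched.

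The 10 genes did not move as one across lungs. Of the 45 pairs 29 had a Pearson correlation above 0, with a median of 0.14 over 5 to 8 lungs that share their arrays. Acta2 entered with its brightest probe, flagged in wild-type replicates 1 and 2, and its pair with Myh11 was the lowest (r = -0.74, n = 6). The lowest pair without Acta2 was Mylk and Tagln (r = -0.56, n = 6). The closest pair was Actg2 and Des (r = 0.96, n = 7), which shared the low value of wild-type replicate 1. Averaged over the genes after each was centred on its own mean, the profile spanned 0.29, from -0.16 in wild-type replicate 1 to 0.13 in wild-type replicate 3, with transgenic replicate 1 at 0.12 and the other lungs between -0.05 and 0.04. Wild-type replicates 1 and 3 had values for 8 of the 10 genes. Over the 5 genes with values in all lungs, transgenic replicate 1 was highest at 0.13. Wild-type replicates 3 and 1 were then at 0.11 and -0.12. Transgenic replicate 1 was the highest lung for Myh11, Tagln and Cnn1, and transgenic replicate 3 the lowest for Myh11, Mylk, Lmod1 and Myocd.

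**Figure D4:**
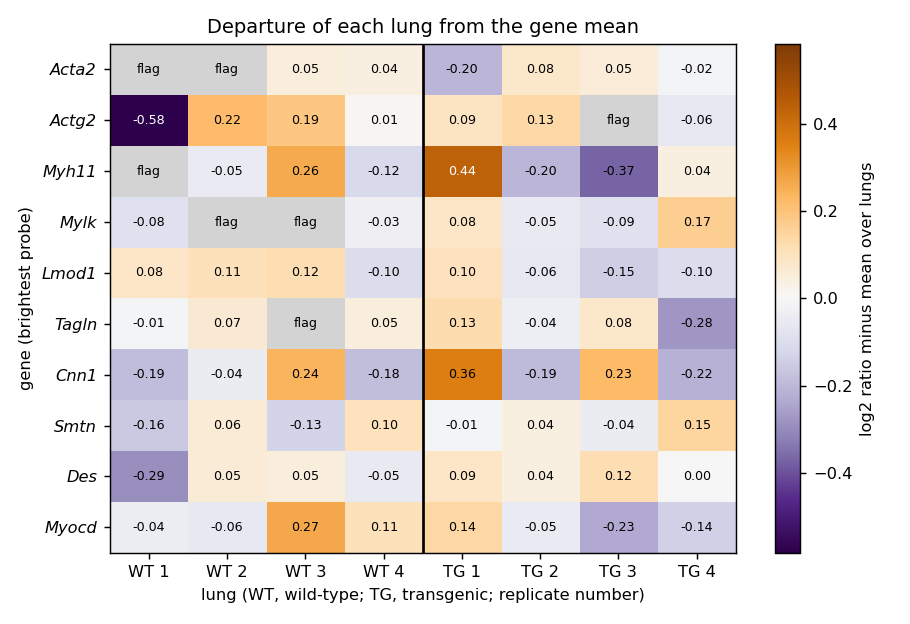
Log2 ratio minus the mean of the gene over the lungs (color scale and printed values) for the brightest probe of the 10 genes in 4 wild-type (WT) and 4 transgenic (TG) lungs, with grey cells for flagged spots. Actg2 (-0.58) and Des (-0.29) are lowest in wild-type replicate 1, Myh11 is highest in transgenic replicate 1 (0.44), and neither genotype has a uniform color.

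Among 10811 other genes with a range of at least 0.5 over the 8 lungs, those most like this mean profile were Slc12a9 (Pearson r = 0.99), Hnrnpa0 (0.98), Nrbp2 (0.97), 1700027A23Rik (0.97), Cox17 (0.96), Fn1 (0.96), Dcps (0.95), Osbpl10 (0.95), Pvrl4 (0.95) and 1700001O22Rik (0.94). Those most opposed were Rcn1 (-0.98), 1110037F02Rik (-0.95), Pank2 (-0.95), Zfp948 (-0.94) and Gpr125 (-0.94). Against the profile of the 5 smooth muscle genes with values in all lungs, these correlations were 0.88 to 0.97 and -0.96 to -0.86. With 8 lungs and so many genes, 0.37% of the candidates had a correlation above 0.9, and the order is a description. No other smooth muscle gene of the lists below was among the 15, but genes with a flagged lung or a smaller range could not enter. With 15 places for so many genes, this absence tells nothing about those genes.

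Other parts of the smooth muscle machinery were read from lists chosen by function. Of 23 further contractile apparatus genes tested, 1 had an unadjusted p under 0.05 with a higher level in transgenic lungs, where 1.12% of all probes did, and 1 with a lower level, where 0.974% did. The higher one was Ppp1r14a, an inhibitor of myosin phosphatase (difference 0.36, standard error 0.16, unadjusted p = 0.0493 by limma), and the lower one was Hspb1, a heat shock protein found in many cells (-0.59, standard error 0.24, unadjusted p = 0.0296 by limma). Of the other bright members of this list, Myl6, a myosin light chain, was at 0.19 (standard error 0.11), Tns1, a focal adhesion protein, at -0.08 (0.14) and Tpm1, a tropomyosin, at -0.21 (0.19). The median over the 23 was 0.07, and it was -0.03 with median centring, which moved the median of all probes to -0.05.

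Of 15 transcription factors and coactivators tested, 1 passed the unadjusted threshold with a higher level, where 1.12% of all probes did, and 0 with a lower level. The 1 that passed was Prrx1, a mesenchymal homeobox factor, whose wild-type mean was -0.68 ± 0.08 and transgenic mean -0.46 ± 0.07 (SD, n = 4 each), with a difference of 0.21 (unadjusted p = 0.0447 by limma). With the slide as a block this p was 0.0593. Tead1, Foxf1a, Gata6 and Hand2, the brightest of the list, had differences of -0.10, 0.20, -0.04 and 0.09 with standard errors of 0.14 to 0.24.

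Of 19 calcium handling, RhoA and cyclic GMP signaling genes tested, 14 had a difference above 0, where 50.4% of all probes did, with a median of 0.04. Of these 3 passed the unadjusted threshold, all higher in transgenic lungs, beside 1.12% of all probes. Gucy1b3, a subunit of the nitric oxide receptor guanylate cyclase, had a wild-type mean of 0.11 ± 0.13 and a transgenic mean of 0.38 ± 0.06 (SD, n = 4 each; difference 0.27, unadjusted p = 0.0216 by limma). Trpc6, a cation channel, was -0.39 ± 0.09 and -0.02 ± 0.23 (SD, n = 4 each; difference 0.37, unadjusted p = 0.0113 by limma). For both genes all transgenic lungs lay above all wild-type lungs, where the genotypes did not overlap for 1.97% of all probes. The transgenic lung was therefore the higher on 4 of 4 slides for both, which adds nothing to that separation. Pde5a, the phosphodiesterase that degrades cyclic GMP, was -0.62 ± 0.55 (n = 3) and -0.02 ± 0.41 (n = 4), with ranges that overlapped (difference 0.60, unadjusted p = 0.0496 by limma), and the transgenic lung was the higher on 3 of 3 slides with both values. With the slide as a block the p of Pde5a was 0.000553 and those of Gucy1b3 and Trpc6 were 0.0247 and 0.0165 by limma. These genes were named for their p over the same lungs, so the values by slide are no separate support. The adjusted p was 1 for each, and 0 of the 19 passed the unadjusted threshold with median centring or in the sample channel alone, where the median was -0.04 and -0.02.

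Of 24 receptors for contractile and relaxing agonists tested, 0 had an unadjusted p under 0.05 in either direction by limma. The endothelin receptors Ednrb and Ednra had differences of 0.43 (standard error 0.25) and 0.31 (0.16), and the thromboxane receptor Tbxa2r had one of -0.09 (0.25).

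Neighboring mesenchymal cells were read the same way. Of 12 pericyte markers 9 were above 0, where 50.4% of all probes were. Trpc6, which is also on this list, was the 1 that passed the unadjusted threshold, beside 1.12% of all probes with a higher level. Pdgfrb, the PDGF receptor of pericytes, was at 0.20 (standard error 0.16) and Cspg4 at 0.0069 (0.10). Of 12 fibroblast markers 9 were above 0 and 3 below, and 3 passed, all higher in transgenic lungs, beside 1.12% of all probes. They were the collagen chains Col1a1 (0.36, standard error 0.16, unadjusted p = 0.0436) and Col3a1 (0.36, 0.13, unadjusted p = 0.0177) and the signaling ligand Wnt2 (0.72, 0.23, unadjusted p = 0.00884), by limma. The 3 below 0, named after their values were seen, were Col1a2 (-0.13, standard error 0.12), the partner chain of Col1a1, Fbln1 (-0.10, 0.11) and Pdgfra (-0.03, 0.11). The Col1a2 probe was dim, at the 24.5th percentile of intensity, beside the 95.8th for the Col1a1 probe. The list median was 0.16. It was 0.02 with median centring and 0.0091 in the sample channel alone. In single lungs the fibroblast list lay between -0.14 and -0.04 in wild-type and between 0.03 and 0.18 in transgenic lungs, whereas the 10 smooth muscle genes lay between -0.16 and 0.13 and between -0.05 and 0.12. The genotypes were also apart for the list of calcium handling, RhoA and cyclic GMP signaling genes. It lay between -0.12 and -0.01 in wild-type and between 0.0065 and 0.12 in transgenic lungs, a narrow gap. The median of that list was -0.04 with median centring and -0.02 in the sample channel alone. For the other lists the genotypes overlapped, and how often lists of other genes separate was not tested. Whether the fibroblast, calcium handling and smooth muscle lists differ from each other in their response was not tested either.

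Lists for other tissues that a lung sample can hold were read beside the smooth muscle genes. Of 12 cardiac muscle markers, which pulmonary vein walls express, 11 were below 0, while 50.4% of all probes were above 0. Their median was -0.41, and 4 passed the unadjusted threshold with a lower level, beside 0.974% of all probes (Myh6 -0.62, Myl4 -0.54, Myoz2 -0.57 and Ttn -0.47). In single lungs this list ran from -0.04 to 0.56 in wild-type and from -0.59 to 0.13 in transgenic lungs, lowest in transgenic replicate 1 and highest in wild-type replicate 3. Without wild-type replicate 3 the count that passed was 0 and the median -0.28. Des, which cardiac muscle shares, was 0.03 and -0.01 in those lungs. Skeletal muscle markers ran from -0.13 to 0.17, and 1 of 12 passed, beside the same 0.974% of all probes. It was Ckm (-0.44, unadjusted p = 0.0138 by limma). On the skeletal list 5 genes were above 0 and 7 below, with a median of -0.06.

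Alveolar epithelium markers were below 0 for 11 of 11 genes, while 50.4% of all probes were above 0. Their median was -0.27, and the list ranged from -0.20 to 0.57 in wild-type and from -0.63 to 0.03 in transgenic lungs. Sftpa1 (-0.75) and Sftpd (-0.47), which encode surfactant proteins, passed the unadjusted threshold, beside 0.974% of all probes with a lower level. Transgenic replicate 1 was at -0.63 and the other transgenic lungs between -0.02 and 0.03, and without transgenic replicate 1 the median was -0.07 with 9 of 11 below 0. Without wild-type replicate 4 the median was -0.46. Of 11 airway epithelium markers 1 passed, beside the same 0.974%, and it was Plunc (-1.53), a protein of airway secretions. Of 11 endothelium markers 1 passed in each direction, beside 1.12% of all probes higher and 0.974% lower. They were Kdr (0.63), the VEGF receptor, and Tek (-0.44), the angiopoietin receptor. Cartilage, esophagus and mesothelium markers had 0 of 12, 0 of 8 and 0 of 5 below 0.05 by limma, with medians of 0.04, -0.01 and 0.0079. The adjusted p was 1 for all of these genes, and the part of tissue composition in the values of the smooth muscle genes was not tested.

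**Figure D5:**
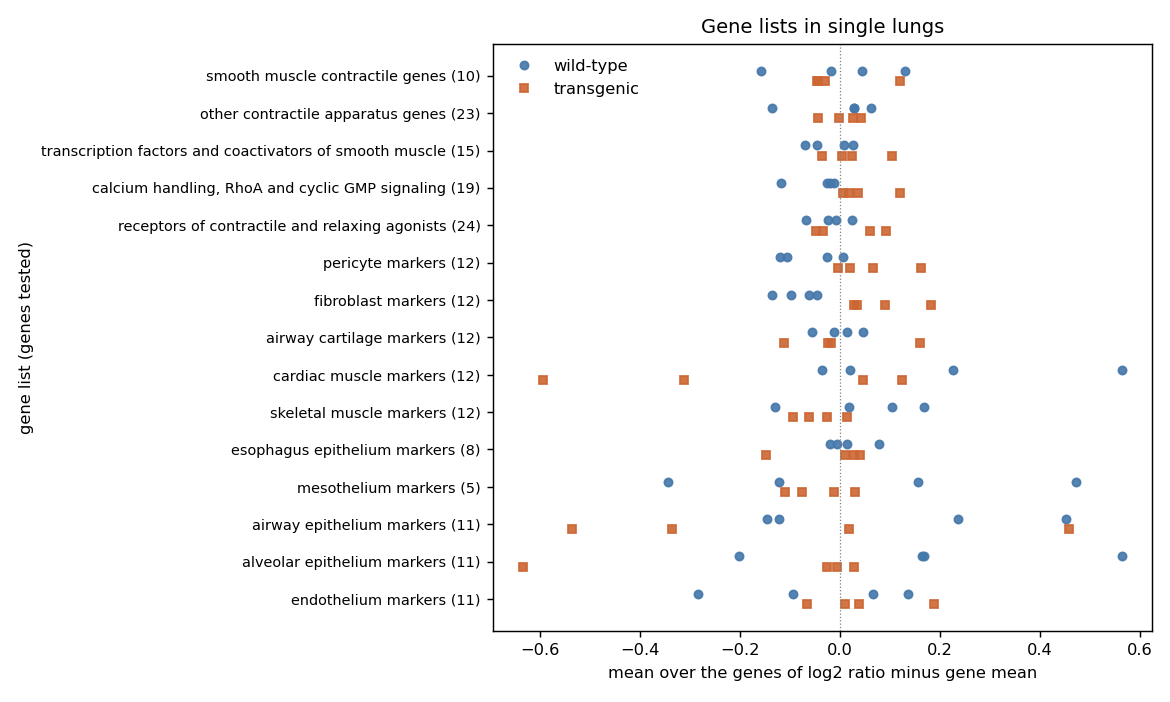
Mean over the genes of a list of the log2 ratio minus the mean of the gene over the lungs (horizontal axis), with a circle for each wild-type and a square for each transgenic lung and the number of genes tested in parentheses. The smooth muscle contractile genes span 0.29 with overlapping genotypes, and the cardiac muscle (1.16) and alveolar epithelium markers (1.20) span the most.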

How the data were processed

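RNA of 8 whole lungs was measured, grouped by genotype as the labels give it. For each array the authors deposited Agilent Feature Extraction output (10.10.1.1 in the file headers, 11.0.1.1 in the submitters' processing notes) with raw and processed intensities per spot and their log10 ratios, and a matrix of log2 ratios. For 39811 of 39811 matrix probes with 1 spot, the deposited log2 value lay within 0.001 of the ratio of processed signals. Here median signals were corrected with normexp (offset 50, fitted on unflagged spots), control and outlier-flagged spots were dropped, loess was applied within each array to the log2 ratios, and repeated spots were averaged, in R 4.3.3 with limma 3.58.1. No mean signals were in the files, so medians were used where means had been planned. A probe was tested when its Cy5 signal was well above background on at least 4 of 8 arrays and with at least 2 values per genotype, which 32653 probes were. limma compared the genotypes, two-sided, with Benjamini-Hochberg adjustment over these probes, and the exact permutation test was run per probe. By the study's methods RNA was isolated separately from 4 mice of each genotype, although the labels do not name the animals. The p-values measure the spread between these samples. The number of arrays limits the precision. Another 24 alternatives were run, and a further one, normexp fitted on all spots, was chosen after seeing the data.

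The genes and the 14 lists of other genes were chosen with earlier results of these data known. All 10 genes are named with every probe, led by the brightest. From the lists, genes with an unadjusted p under 0.05 and otherwise at most 4 of the highest mean intensity are named, and for likeness the 10 highest and 5 lowest correlations. Promoter sequences are from RefSeq (GRCm38.p6). The methods and labels differ on age (approximately 8 weeks in the methods) and on the RNA kit. Figures were drawn with matplotlib 3.10.9.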

Additional observations from a re-analysis of the deposited data

Results flagged for a closer look

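In 3 of 27 sets of 4 lungs tested, a single lung stood apart from the other 3 by more than Dixon's criterion for 4 values allows at 95%, and chance gives this in about 1 of 20 sets. Acta2 probe A_52_P210078 had a gap of 0.838 of the range in transgenic lungs, where replicate 4 (-0.98) was low. Acta2 probe A_52_P644232, which was close to background, had a gap of 0.912 in wild-type lungs, where replicate 2 (-0.36) was low. Lmod1 had a gap of 0.839 in wild-type lungs, where replicate 4 (0.04) was low.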

How the results depend on the processing

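Under each alternative that gave counts, the one added after seeing the data included, 0 of the 16 probes had an adjusted p under 0.05 and 0 passed 1.5-fold with an unadjusted p under 0.05. The count with an unadjusted p under 0.05 was 0 under every alternative except without transgenic replicate 4, where it was 1 (Acta2 probe A_52_P420504, at 0.38), so leaving out a lung gave 0 to 1. The median over the genes lay between -0.07 (without wild-type replicate 1) and 0.07 (the authors' matrix). Without wild-type replicate 1 it rested on 3 genes above 0 and 6 below, because Mylk could not be fitted. Acta2 A_52_P420504, A_52_P210078 and A_52_P239556, Lmod1, Des and Myocd A_52_P557424 kept their sign throughout. Differences that changed sign were small, and the cause was not tested. With the authors' matrix Acta2 A_51_P450957 was 0.074, Myh11 0.060, Mylk A_51_P272407 0.096 and Tagln 0.048, and with Agilent processed signals Mylk A_51_P272407 was 0.096. With median centring Acta2 A_52_P644232 was 0.052 and Smtn -0.014. In the sample channel alone Actg2 was -0.032, Mylk A_52_P575217 -0.027, Tagln 0.026 and Cnn1 -0.088. With flagged spots kept Acta2 A_51_P450957 was 0.051, Myh11 0.027 and Tagln 0.027. With array weights Acta2 A_52_P644232 was 0.030 and Myocd A_51_P469942 0.066, and with the slide as a block Tagln was 0.021. With normexp fitted on all spots Acta2 A_52_P644232 was 0.047, Actg2 -0.083, Tagln 0.086 and Smtn -0.012. Leaving out 1 lung gave -0.092 to 0.019 for Acta2 A_52_P644232, -0.084 to 0.18 for Actg2, -0.21 to 0.059 for Myh11, -0.12 to 0.023 for Mylk A_51_P272407, -0.11 to 0.021 for Tagln, -0.016 to 0.18 for Cnn1 and -0.21 to 0.042 for Myocd A_51_P469942. Where a lung was left out of a gene with flagged spots, a genotype could have 2 values, and 1 to 2 probes could not be fitted without wild-type replicates 1, 3 and 4.

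Same-numbered lungs deviated from their genotype means with correlations of 0.32, 0.25, -0.08 and -0.21 over the probes tested, so the replicate numbers do not pair the samples, and wild-type replicates 1 to 4 correlated best with transgenic replicates 1, 2, 4 and 2. Replicates 1 and 2 shared a slide with their namesakes, and over slides 1 to 4 the lungs of a slide correlated at 0.30, 0.32, 0.25 and 0.07. With a replicate block the median over the 10 genes was 0.02 and 0 of the 16 probes passed an unadjusted p of 0.05. Spots flagged on 1 or 2 arrays left 7 values missing among the 16 probes, which limits Acta2 A_51_P450957 and Mylk A_52_P575217 most. Over all probes tested, 683 had an unadjusted p under 0.05 by limma, and 301 (sample channel alone) to 1241 (authors' matrix) did under the alternatives. The count past 1.5-fold as well was 75, and 27 (the methods' t-test) to 783 (authors' matrix), with 0 adjusted in each. With the slide as a block 1211 probes had an unadjusted p under 0.05, as did 2 pericyte, 2 skeletal muscle, 3 alveolar and 1 esophagus markers, in place of 1, 1, 2 and 0, and the p of Hspb1 was 0.00287, of Col1a1 0.00874, of Col3a1 0.00465 and of Ckm 0.00225 by limma. The named genes were chosen by their p over the same lungs, so these values are no separate support. Among the other lists, the number past the unadjusted threshold ran from 0 to 8 for cardiac muscle, 0 to 3 for calcium handling and 1 to 3 for fibroblast markers over 13 settings.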
